A study of Homo sapiens with 18 samples.

Results

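The genes described here are those that mark a hepatocyte, the main cell of the liver, and carry out its functions. The list holds 47 genes, chosen by name: secreted plasma proteins, transcription factors of the hepatocyte, enzymes of the urea cycle, of glucose and amino acid metabolism and of drug metabolism, and the 2 keratins of simple epithelia. Of these, 44 had a named probe among the 19782 genes named on the arrays, and 3 are not analysed here. A gene with several probes is represented by the one with the highest mean. Of the 44, 15 passed the filter on low values, which kept genes whose mean reached the median of all probes, and could be tested.

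Hepatocytes make most plasma proteins, including albumin, the apolipoproteins that carry lipids in blood, the chains of fibrinogen that form a clot, and protease inhibitors. They detoxify ammonia through the urea cycle, release glucose between meals, and clear drugs with cytochrome P450 enzymes. A network of factors that includes the FOXA and C/EBP families binds the promoters of these genes, and cell lines derived from liver tumours keep the programme to differing degrees.

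The study used cells labelled HepG2, an established liver carcinoma line, and 18 Illumina bead arrays. By their labels, 6 arrays came from cells transfected with scramble siRNA as the control, 6 from cells given si-PSTAR, which targets a long noncoding RNA, and 6 from cells given si-hnRNP K, which targets the product of HNRNPK, a protein that binds RNA and DNA. Of each 6, 3 were untreated and 3 had received 400 nM of the DNA-damaging drug doxorubicin (DOX), for 16 hours by the series' design text. All groups share the labelled line and an siRNA transfection. The line is known here from the labels alone and was not tested. The low levels of liver genes below therefore hold for cells as labelled and are not shown to be a property of HepG2. Separate cultures are not stated for the 3 arrays of a group, so p-values cover only the spread among them, possibly technical, and their number limits the precision. Since these are bulk samples, fewer expressing cells and less RNA per cell cannot be told apart.

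The level of HNRNPK did not follow the labels. Without DOX its log2 intensity was 8.44 ± 0.02 (SD, n = 3) in arrays labelled si-PSTAR, against 11.55 ± 0.12 in arrays labelled si-hnRNP K and 11.72 ± 0.09 in scramble. The values with DOX were 8.32 ± 0.14, 11.36 ± 0.22 and 11.95 ± 0.07. Every direction below therefore holds for arrays as labelled, and PSTAR had no named probe here. By correlation, the 6 untreated arrays of scramble and of the si-hnRNP K label clustered apart from the other 12. The lowest r was 0.978 within the 6 and 0.957 within the 12, the latter below the highest r between clusters, 0.963. The split is thus not sharp, and it was taken from the same values as the comparisons. Comparisons across the clusters moved the median of all genes tested, by 0.24 log2 units for DOX in scramble, by 0.21 for DOX in arrays labelled si-hnRNP K, by 0.17 for arrays labelled si-PSTAR against scramble without DOX and by -0.17 for the contrast of both siRNA labels without DOX. After cyclic loess scaling these 4 medians were 0.0517, 0.0512, -0.0023 and -0.0093. In the 5 comparisons of groups within a cluster the median lay between -0.01 and 0.02, and those come first.

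The promoters of 4 listed genes whose probes moved are shown, because hepatocyte genes are known for shared promoter elements. FGG was below the filter and FGA read high on a probe that the tests did not use. Both were singled out after their values were seen. Other called genes, among them CPS1, CEBPA and KRT8, are not shown. The sequences are those of RefSeq for GRCh38.p14, 250 bases before to 50 bases after the gene's start, written 5′ to 3′ on the gene's strand. ALB lies at chr4:73404037-73404336 on the plus strand, FGA at chr4:154590693-154590992 on the minus strand, FGG at chr4:154612607-154612906 on the minus strand and VTN at chr17:28370258-28370557 on the minus strand. Capitals mark matches, on either strand, to the HNF1 half-site (GTTAAT), the C/EBP motif (TTGCNNAA) or the acute phase STAT element (CTGGGAA).
ALB: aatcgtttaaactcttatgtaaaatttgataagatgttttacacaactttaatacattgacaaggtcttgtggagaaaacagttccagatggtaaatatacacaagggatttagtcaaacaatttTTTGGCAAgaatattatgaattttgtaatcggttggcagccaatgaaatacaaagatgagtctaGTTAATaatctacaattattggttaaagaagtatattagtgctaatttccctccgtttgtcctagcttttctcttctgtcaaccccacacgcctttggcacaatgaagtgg
FGA: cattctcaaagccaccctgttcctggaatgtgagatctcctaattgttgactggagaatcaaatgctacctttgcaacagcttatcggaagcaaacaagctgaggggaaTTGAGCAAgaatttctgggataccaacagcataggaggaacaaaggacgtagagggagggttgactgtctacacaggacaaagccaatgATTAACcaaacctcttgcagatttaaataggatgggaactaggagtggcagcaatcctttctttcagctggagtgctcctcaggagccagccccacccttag
FGG: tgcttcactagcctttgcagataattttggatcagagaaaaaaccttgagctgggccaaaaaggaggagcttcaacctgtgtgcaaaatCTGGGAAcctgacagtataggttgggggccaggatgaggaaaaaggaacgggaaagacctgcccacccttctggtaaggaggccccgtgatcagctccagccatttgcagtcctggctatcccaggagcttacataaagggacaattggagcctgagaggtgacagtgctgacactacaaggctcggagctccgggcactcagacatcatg
VTN: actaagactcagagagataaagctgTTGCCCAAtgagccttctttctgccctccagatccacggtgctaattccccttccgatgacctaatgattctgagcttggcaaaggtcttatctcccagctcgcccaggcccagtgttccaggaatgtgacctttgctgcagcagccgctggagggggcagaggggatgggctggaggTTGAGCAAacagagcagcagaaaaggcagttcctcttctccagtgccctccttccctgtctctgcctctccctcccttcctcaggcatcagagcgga
The HNF1 half-site match begins 61 bases before the start of ALB and 52 before that of FGA. The C/EBP match begins 125 bases before the start of ALB and 141 before that of FGA, and VTN holds 2 such matches, 225 and 47 bases before its start. FGG holds the STAT element 161 bases before its start.

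A promoter was found for 33 of the 44 genes. The HNF1 half-site was in 10 of them, 30.3%, against 8.27% of all 27305 genes with a promoter. These were AFP, ALB, APOH, CYP3A5, F2, FABP1, FGA, FGB, G6PC1 and SERPINA1. The C/EBP motif was in 11, 33.3% against 12.7% of all genes, the STAT element in 8, 24.2% against 13.1%, and a TATA box (TATAAA) in 12, 36.4% against 14.0%. The HNF4 core CAAAGTC was in 2, 6.06% against 4.16%, and the forkhead motif TGTTTAC in 1, 3.03% against 4.19%. Motifs were counted separately and may overlap. A match is a description of the letters in this window, not a binding site, and the listed genes share a tissue by choice.

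On the arrays most of the listed genes were dim. The deposited values are log2 intensities, and the median of all probe means was 5.72. No detection p-values were used, so a value near that median is not shown to be signal, and a difference from a group whose mean lies below it is a difference of readings with no settled size. The means of 29 of the 44 genes lay below that median, and 13 genes were above it on no array. The other 15 are the genes tested. There was a gap in the means: 35 genes lay between 5.25 and 5.88, and 9 lay at 6.56 or above. Of all probes, 59.05% had means at or below the top of the lower band. A probe's brightness depends on its sequence, so genes are placed here by their own position against the median and are not ranked against each other.

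**Figure D1:**
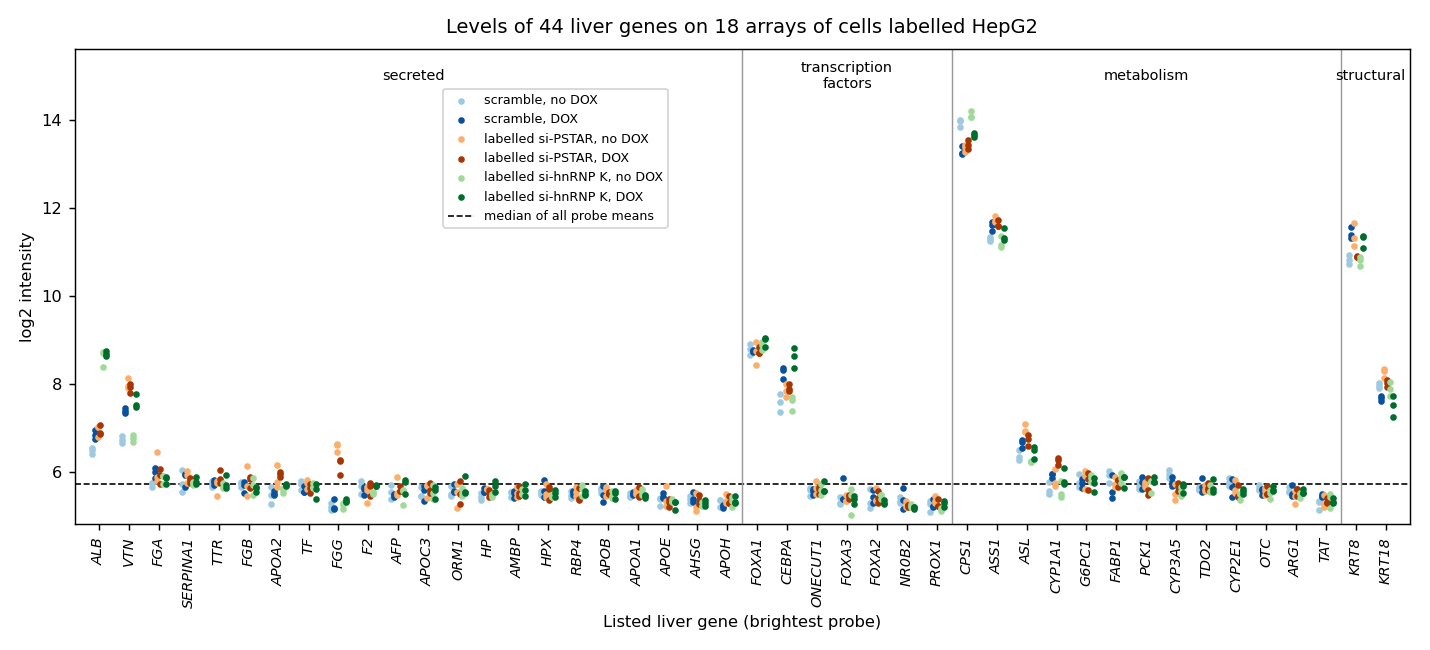
Each point is the log2 intensity (vertical axis) of a listed gene's brightest probe on 1 of 18 arrays, coloured by group, with 44 genes along the horizontal axis and the median of all probe means, 5.72, as a dashed line. The 9 genes with means from 6.56 to 13.63 are set apart above the line on every array, and 35 lie around or under it.

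Among the secreted proteins, 22 genes were measured and 20 of them had means from 5.31 to 5.88. All 6 apolipoproteins lay below the median. APOA1, the main protein of high-density lipoprotein, had a mean of 5.49 and ranged from 5.40 to 5.65 over the 18 arrays. APOB, the main protein of low-density lipoprotein, had a mean of 5.51, APOE 5.34, APOC3 5.55, APOH 5.31 and APOA2 5.67. AFP, the fetal relative of albumin known from liver tumours, ranged from 5.25 to 5.88, and 3 of its 18 arrays lay above the median. AHSG, the fetuin-A gene, had a mean of 5.33 and TF, the iron carrier transferrin, 5.64. RBP4, the carrier of retinol, and AMBP, the precursor of a microglobulin and a trypsin inhibitor, were above the median on 0 arrays. F2, the prothrombin gene, had a mean of 5.59 and HPX, the haem carrier hemopexin, 5.52. HP (haptoglobin) and ORM1 (orosomucoid), which have near-identical relatives that a probe may also bind, had means of 5.54 and 5.55. SERPINA1, the alpha-1 antitrypsin gene, and TTR, the carrier transthyretin, passed the filter with means of 5.81 and 5.74, and were called in 0 of the 9 comparisons of groups. Only ALB and VTN, the gene of the matrix and plasma protein vitronectin, stood clear of this band among the secreted genes measured, with means of 7.41 and 7.39.

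Of the transcription factors, 7 were measured and 5 lay below the median on average. FOXA1, a forkhead factor that opens chromatin at liver and other epithelial genes, had a mean of 8.80 and ranged from 8.42 to 9.03. CEBPA, a factor of differentiated hepatocytes and of fat and myeloid cells, had a mean of 7.95. The related forkhead genes FOXA2 and FOXA3 both had means of 5.40. ONECUT1 had a mean of 5.59. NR0B2, a repressor in bile acid feedback, had a mean of 5.27 and PROX1, an early liver and lymphatic factor, 5.25, and both were above the median on 0 arrays.

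Among 13 genes of metabolism, 3 of the 5 urea cycle enzymes were well clear of the median. CPS1, the mitochondrial enzyme that commits ammonia to the cycle, had a mean of 13.63, ASS1, argininosuccinate synthase, 11.47 and ASL, argininosuccinate lyase, 6.56. OTC and ARG1, the other 2 enzymes, had means of 5.56 and 5.52 and were above the median on 0 arrays. PCK1 and G6PC1, enzymes of glucose production, had means of 5.71 and 5.78, and TAT and TDO2, which break down tyrosine and tryptophan, 5.34 and 5.63. CYP1A1 and FABP1, a fatty acid binding protein, had means of 5.83 and 5.78, and CYP2E1 and CYP3A5, the latter with near-identical relatives, 5.59 and 5.68. The keratins KRT8 and KRT18, found in hepatocytes and many other simple epithelia and with near relatives and processed copies in the genome, had means of 11.09 and 7.87.

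Of 7 hepatocyte markers measured, 3 had means above the median (ALB, SERPINA1 and TTR). Of markers of other liver cells, 2 of 5 for cholangiocytes lay above it (KRT7 at 10.96 and CFTR at 5.80), 5 of 6 for stellate cells or fibroblasts (among them DCN at 8.47 and COL3A1 at 7.94), 2 of 5 for endothelium and 4 of 6 for leukocytes and Kupffer cells. By the same measure 12483 of all 19782 named genes reached the median, so these counts alone show no cell type. Some markers were only just above it, such as PECAM1 at 5.75, CD163 at 5.77 and MARCO at 5.81. KRT19, VWF and STAB2 were above the median on 0 arrays. The mean over the hepatocyte markers ran from 5.71 to 6.06 over all arrays, with both groups labelled si-hnRNP K highest, at 5.99 to 6.06. This list includes ALB, the only 1 of its 3 tested genes called against scramble in these groups, with medians of the 3 at -0.03 without DOX and 0.0057 with it. Of all genes tested in arrays labelled si-hnRNP K against scramble, 17.0% were called higher without DOX and 19.8% with it. The mean over the fibroblast markers was lowest in the same groups, 6.60 to 6.67 without DOX and 6.77 to 6.89 with DOX, against 7.30 to 7.46 in scramble arrays and 7.04 to 7.25 in arrays labelled si-PSTAR. Against scramble with DOX, all 5 tested fibroblast markers were called in arrays labelled si-PSTAR, 2 higher and 3 lower, with a median of -0.56. Of all genes tested, 22.4% were higher and 22.6% lower there. In arrays labelled si-hnRNP K, 4 of the 5 were called lower than scramble without DOX and 3 with it, and 0 higher. Of all genes tested, 16.2% and 19.9% were lower in these comparisons. The mean over the endothelial markers was 5.82 to 5.86 untreated and 5.98 to 6.10 with DOX for the si-hnRNP K label, 5.61 to 5.64 and 5.87 to 5.92 in scramble, and lowest, 5.48 to 5.53, in arrays labelled si-PSTAR. Of the endothelial markers, CDH5 ran from 5.22 to 8.06 over the arrays, while KDR, PECAM1, STAB2 and VWF each reached at most 5.90. The part of all these cell type markers in the results below was not tested. GAPDH, ACTB and EEF1A1, genes that nearly every cell uses, lay between 13.85 and 14.80 on all arrays.

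**Figure D2:**
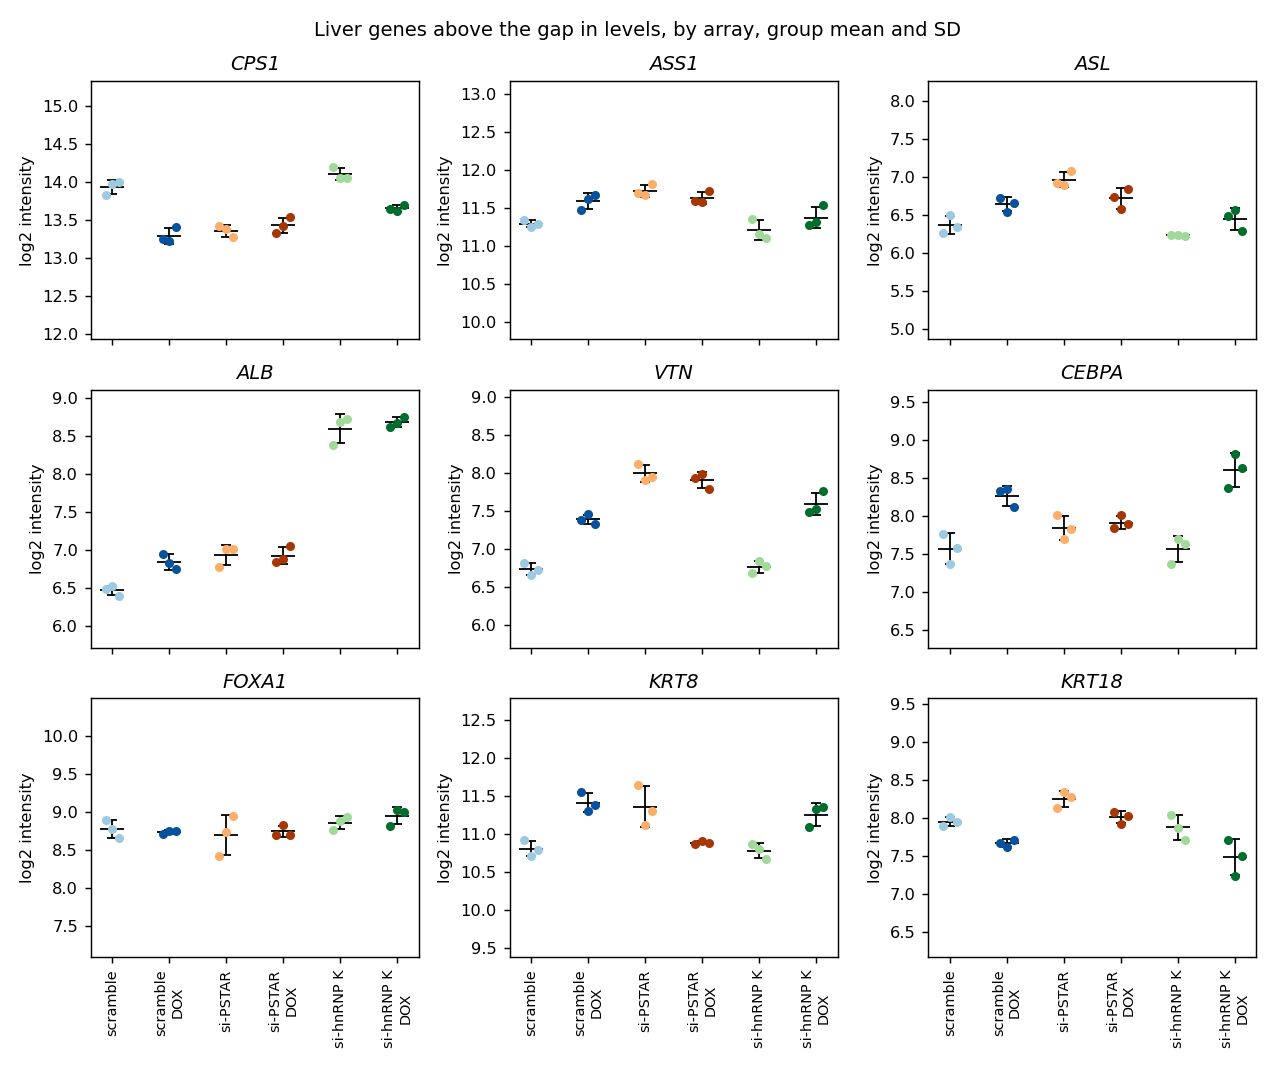
Log2 intensity (vertical axis) of the 9 listed genes with means of 6.56 or above, by group (horizontal axis, with groups named as labelled), with a point for each array and the group mean and SD over 3 arrays. The 6 arrays labelled si-hnRNP K carry the 6 highest ALB values, from 8.39 to 8.75, and the arrays labelled si-PSTAR the highest VTN values, from 7.78 to 8.12.

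ALB, which encodes albumin, the most abundant protein of plasma, was high in the arrays labelled si-hnRNP K. Its values were 6.49, 6.53 and 6.40 in untreated scramble arrays and 6.95, 6.83 and 6.75 with DOX. They were 6.78, 7.02 and 7.01 in untreated arrays labelled si-PSTAR and 6.85, 6.89 and 7.06 with DOX. In the arrays labelled si-hnRNP K they were 8.39, 8.69 and 8.73 untreated and 8.63, 8.68 and 8.75 with DOX. All 6 of these lay above all 12 others, with no overlap.

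In untreated cells, arrays labelled si-hnRNP K had 4.37-fold higher ALB than scramble (log2 difference 2.13 ± 0.10, SE, n = 3 against 3, limma adjusted p = 4.93e-15). ALB was the only 1 of the 15 tested genes called higher, and 0 were called lower, where 17.0% of all genes tested were called higher and 16.2% lower. The median difference of the 15 was -0.03, against 0.0028 over all genes. CEBPA differed by -0.0011 (95% interval -0.25 to 0.25, adjusted p = 0.997), and AFP and APOA1 were below the filter in every comparison. Without the filter, CYP3A5 and CYP2E1 were also called lower, reading 5.56 against 5.95 and 5.44 against 5.77 (limma adjusted p = 0.00347 and 0.0237). So 3 of 44 genes were called, 1 higher and 2 lower, against 20.4% of all genes called in either direction.

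With DOX, ALB was 3.58-fold higher in arrays labelled si-hnRNP K than in scramble (1.84 ± 0.10, adjusted p = 6.68e-14). CPS1 was higher by 0.36 ± 0.09 (adjusted p = 0.00187) and CEBPA by 0.34 ± 0.12 (adjusted p = 0.0242). These 3 were called higher and 0 lower of 15, against 19.8% and 19.9% of all genes tested, and the median was -0.02 against -0.01. FOXA1 differed by 0.21 (adjusted p = 0.119). The CEBPA call was lost without scramble DOX array 3, or array 2 or 3 of the DOX group labelled si-hnRNP K (differences 0.27, 0.24 and 0.33, adjusted p = 0.121, 0.163 and 0.0649), and 5 genes were called without scramble DOX array 1. After cyclic loess VTN was added to the calls, at 0.24 (adjusted p = 0.0452). FOXA1 was called in 0 of the 9 comparisons of groups as deposited.

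The second ALB probe did not carry this difference. It had a mean of 5.56, below the median of all probes, with group means from 5.46 to 5.69, and differed between arrays labelled si-hnRNP K and scramble by 0.02 without DOX and by 0.12 with DOX (adjusted p over all probes = 0.974 and 0.587). The rise of ALB thus rests on 1 probe. With averaged probes the differences were 1.07 and 0.98 (adjusted p = 3.58e-09 and 1.16e-08).

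VTN was high in the arrays labelled si-PSTAR. Its values were 6.81, 6.65 and 6.72 in untreated scramble arrays and 7.37, 7.45 and 7.33 with DOX. In arrays labelled si-PSTAR they were 8.12, 7.91 and 7.94 untreated and 7.93, 7.98 and 7.78 with DOX, and in arrays labelled si-hnRNP K 6.67, 6.83 and 6.77 untreated and 7.48, 7.52 and 7.75 with DOX. The 6 arrays labelled si-PSTAR lay above all others, with no overlap.

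With DOX, the arrays labelled si-PSTAR differed from scramble in 5 of the 15 genes. VTN was 1.43-fold higher (0.52 ± 0.09, adjusted p = 6.11e-05), KRT18 was higher by 0.34 ± 0.11 (adjusted p = 0.00961) and CYP1A1, a cytochrome P450 induced through the aryl hydrocarbon receptor, by 0.33 ± 0.12 (adjusted p = 0.0221). KRT8 was 1.44-fold lower (-0.53 ± 0.11, adjusted p = 0.000347) and CEBPA lower by a difference of -0.35 ± 0.12 (adjusted p = 0.0189). So 3 were called higher and 2 lower, against 22.4% and 22.6% of all genes tested, with a median of 0.08 against 0.01. ALB differed by 0.09 (95% interval -0.12 to 0.29, adjusted p = 0.526).

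Calls of CYP1A1 and CEBPA in this comparison depended on single arrays. Without scramble DOX array 2 or array 2 or 3 of the DOX group labelled si-PSTAR, CYP1A1 had adjusted p = 0.0720, 0.0735 and 0.0628. CEBPA had adjusted p = 0.0643 and 0.0766 without scramble DOX array 1 or 2, and 0.0661 and 0.0526 without array 1 or 3 of the other group. Without scramble DOX array 2, or array 3 labelled si-PSTAR, 3 genes were called. The second KRT18 probe differed by 0.10 (adjusted p over all probes = 0.576).

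Within the si-PSTAR label, DOX moved CYP1A1 and KRT8 past the threshold. CYP1A1 was 5.67, 5.74 and 6.06 untreated and 6.15, 6.30 and 6.27 with DOX, a rise of 0.42 ± 0.12 (adjusted p = 0.0138). KRT8 was 11.65, 11.13 and 11.31 untreated and 10.88, 10.91 and 10.89 with DOX, and fell by 0.47 on the log2 scale (SE 0.11, adjusted p = 0.00466). Both changes left no overlap between the groups. These 2 were the calls among 15, 1 higher and 1 lower, against 10.2% and 7.69% of all genes tested, with a median of -0.05 against 0.02. CYP1A1 lost its call without untreated array 1 or DOX array 2 labelled si-PSTAR (0.34 and 0.39, adjusted p = 0.0681 and 0.0596), which left 1 call. CEBPA and ALB differed by 0.07 and -0.01 (adjusted p = 0.740 and 0.967).

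The direct contrast of both labels with DOX held 9 calls of 15, with 4 genes higher in arrays labelled si-hnRNP K and 5 lower, against 22.3% and 20.9% of all genes tested. The median was -0.08 against -0.01. ALB was higher by 1.76 ± 0.10 (adjusted p = 1.62e-13), CEBPA by 0.69 ± 0.12 (adjusted p = 3.2e-05), KRT8 by 0.37 ± 0.11 (adjusted p = 0.00853) and CPS1 by 0.22 ± 0.09 (adjusted p = 0.0442). KRT18 was lower by a difference of -0.53 ± 0.11 (adjusted p = 0.000196), CYP1A1 by -0.39, VTN by -0.32, ASL by -0.27 and ASS1 by -0.26 (adjusted p = 0.00776, 0.00766, 0.0278 and 0.0294).

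The CPS1, ASL and ASS1 calls of this contrast were close to the threshold. CPS1 lost its call without any 1 of 5 of the 6 arrays compared, array 3 labelled si-PSTAR being the exception (differences 0.18 to 0.24, adjusted p = 0.0584 to 0.171). ASL lost it without array 1 or 3 labelled si-PSTAR or array 3 labelled si-hnRNP K (-0.26, -0.20 and -0.19), and ASS1 without array 3 labelled si-PSTAR or array 1 or 2 labelled si-hnRNP K (-0.21, -0.21 and -0.23). After cyclic loess CPS1 and ASL lost theirs (0.22 and -0.23, adjusted p = 0.0510 and 0.0524). The second ASL probe differed by 0.09, in the opposite direction, and the second ASS1 probe by -0.20 (adjusted p over all probes = 0.672 and 0.215).

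**Figure D3:**
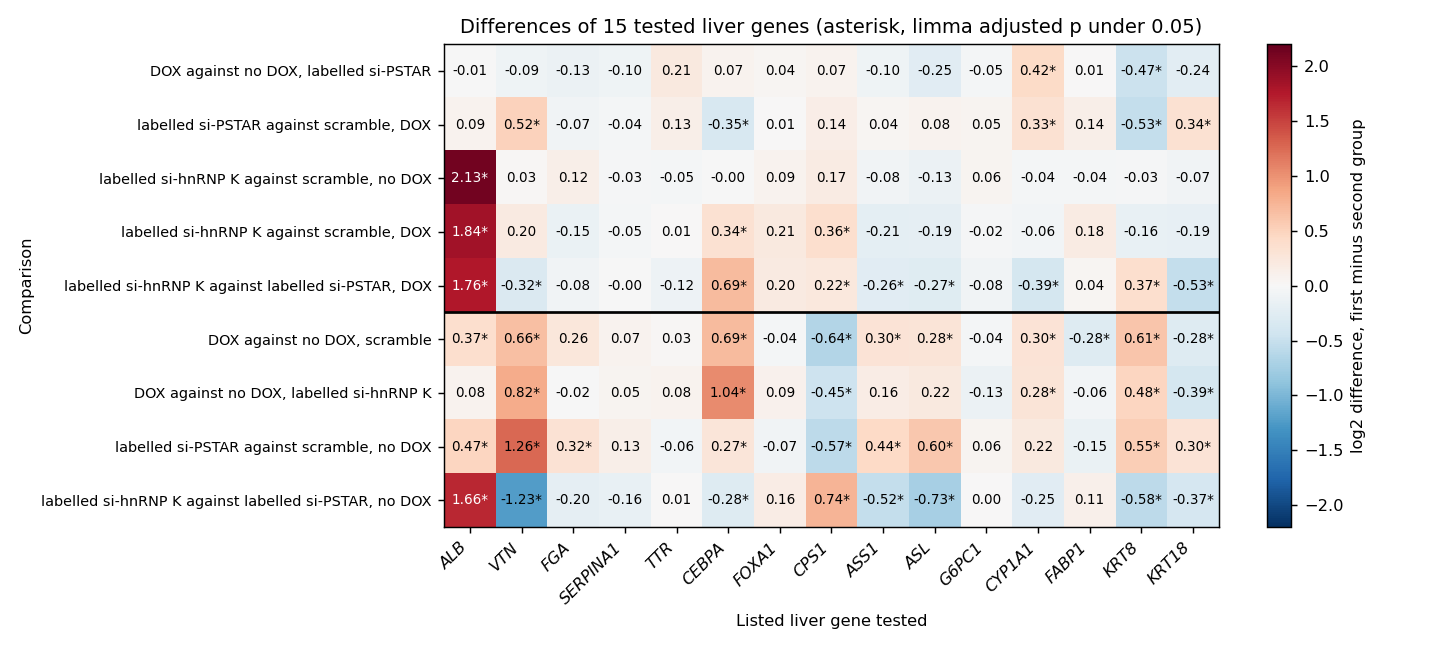
Log2 differences of the 15 tested genes (horizontal axis) in the 9 comparisons of groups (vertical axis), as colour and number, with an asterisk where the limma adjusted p was under 0.05. Comparisons within a cluster of arrays stand above the line and those across clusters below it, and the ALB column holds the 4 largest, from 1.66 to 2.13, all in contrasts of arrays labelled si-hnRNP K.

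In untreated cells, arrays labelled si-PSTAR differed from scramble across the clusters, with 8 of 15 genes called higher and 1 lower, against 43.6% and 22.6% of all genes tested and a median of 0.27 against 0.17. VTN was 2.40-fold higher (1.26 ± 0.09, adjusted p = 8.33e-12). ASL was higher by 0.60 ± 0.10, KRT8 by 0.55 ± 0.11, ALB by 0.47 ± 0.10 and ASS1 by 0.44 ± 0.09 (adjusted p = 5.49e-06, 0.000112, 0.000217 and 0.00023). The second ASS1 probe went the opposite way, with means of 11.03 in arrays labelled si-PSTAR and 11.45 in scramble. CPS1 was 13.83, 13.96 and 14.00 in scramble and 13.42, 13.38 and 13.27 in arrays labelled si-PSTAR, lower by a difference of -0.57 ± 0.09 (adjusted p = 3.31e-06). FGA, KRT18 and CEBPA were higher by 0.32, 0.30 and 0.27 (adjusted p = 0.0297, 0.0152 and 0.0469), and the arrays of CEBPA overlapped. The FGA mean in untreated scramble, 5.71, lay just below the median of all probes, so its difference has no settled size.

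After cyclic loess 4 of these calls were left and FOXA1 was added, lower by a difference of -0.37 (adjusted p = 0.00403), for 5 calls. VTN differed by 0.94, CPS1 by -0.72, ASL by 0.34 and KRT8 by 0.30, while ALB (0.15), ASS1 (0.20), FGA (0.28), KRT18 (-0.02) and CEBPA (-0.04) were not. FGA lost its call without untreated array 1 or 2 of scramble or array 2 labelled si-PSTAR (0.33, 0.28 and 0.11), KRT18 without scramble array 1 or array 2 labelled si-PSTAR (0.27 and 0.255), and CEBPA without scramble array 2 or 3 or array 1 or 3 labelled si-PSTAR (0.17, 0.28, 0.19 and 0.28).

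2 fibrinogen genes were high in arrays labelled si-PSTAR on probes that the tests above did not use. FGG, the gamma chain, was below the filter with a mean of 5.62 and was singled out after its values were seen. Its brightest probe read 5.12, 5.20 and 5.29 in untreated scramble arrays and 5.38, 5.15 and 5.17 with DOX, and 5.14 to 5.38 in the 6 arrays labelled si-hnRNP K. In arrays labelled si-PSTAR it read 6.60, 6.45 and 6.64 untreated and 6.25, 5.92 and 6.24 with DOX, above all 12 others. Its means in arrays labelled si-PSTAR stood 0.84 above the median of all probes without DOX and 0.41 with DOX, while the means of 5.20 and 5.24 in scramble lay below that median, so no size is given for the difference. The other 2 FGG probes differed by 0.12 and 0.18 without DOX and by 0.08 and -0.02 with DOX.

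FGA, the alpha chain, also read high there on its second probe, which had a mean of 5.85 against 5.88 for the probe used. That second probe read 6.05 to 6.40 in the 6 arrays labelled si-PSTAR and 5.33 to 5.78 in the other 12, with no overlap, and was singled out after its values were seen. Its means in arrays labelled si-PSTAR were 6.24 without DOX and 6.33 with DOX, and those of scramble, 5.49 and 5.63, lay below the median of all probes. The probe used differed by 0.32 and -0.07. FGB, the beta chain, had a mean of 5.70 and was called in 0 comparisons. Without the filter, APOA2 was called higher with DOX in arrays labelled si-PSTAR than in scramble, reading 5.93 against 5.51 (limma adjusted p = 0.00259), and without DOX, reading 5.85 against 5.46 with overlapping arrays (adjusted p = 0.00338). Counted without the filter, 5 of 44 genes were higher and 2 lower with DOX, against 13.8% and 14.3% of all genes, and 9 and 2 without DOX, against 28.2% and 15.2%.

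**Figure D4:**
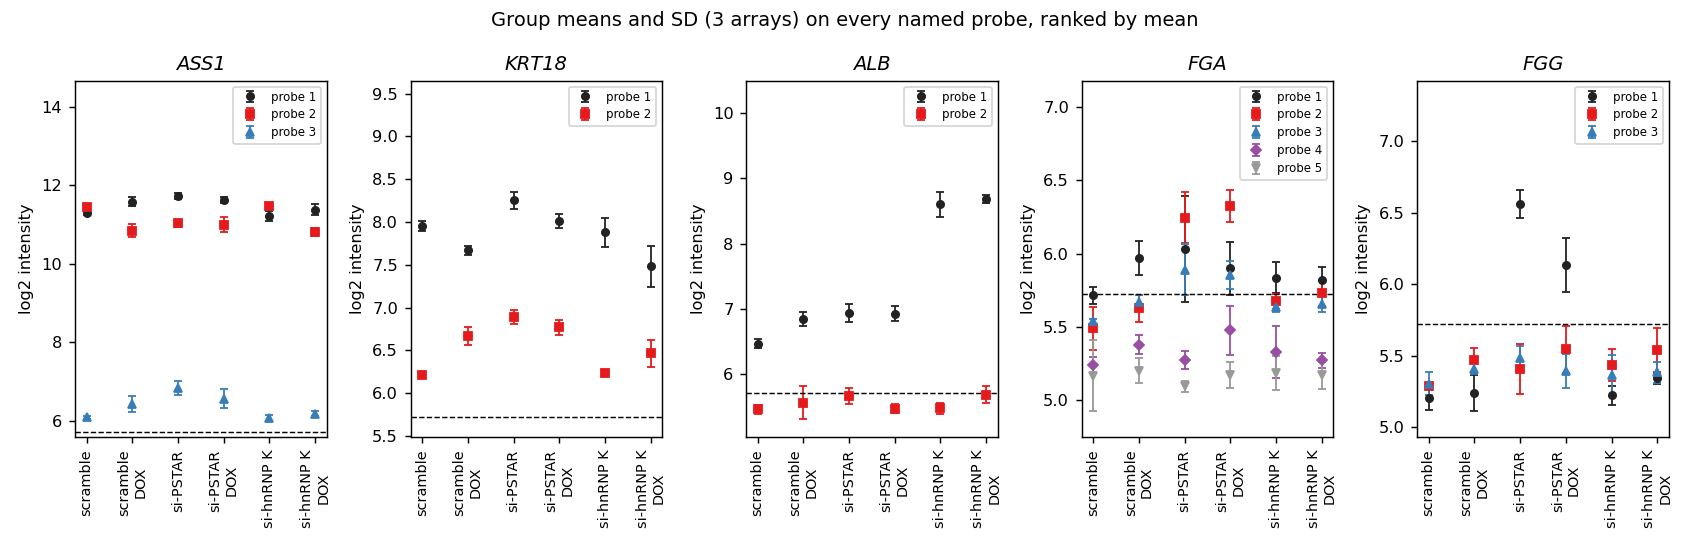
Group means and SD over 3 arrays in log2 intensity (vertical axis) by group (horizontal axis) on the named probes of ASS1, KRT18, ALB, FGA and FGG, ranked by mean, with the median of all probe means, 5.72, dashed. ALB is high on probe 1 in the groups labelled si-hnRNP K, FGG on probe 1 in those labelled si-PSTAR, and ASS1 probes 1 and 2 move in opposite directions between untreated scramble (11.29 and 11.45) and DOX (11.59 and 10.85).

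DOX in scramble cells, a comparison across the clusters, called 7 of 15 genes higher and 3 lower, against 50.3% and 14.9% of all genes tested and a median of 0.26 against 0.24. CEBPA went from 7.76, 7.36 and 7.57 to 8.32, 8.35 and 8.11, a rise of 0.69 ± 0.12 (adjusted p = 1.84e-05). VTN rose by 0.66 ± 0.09, KRT8 by 0.61 ± 0.11 and ALB by 0.37 ± 0.10 (adjusted p = 1.37e-06, 4.17e-05 and 0.0022). CPS1 went from 13.83, 13.96 and 14.00 to 13.24, 13.22 and 13.41, and fell by 0.64 on the log2 scale (SE 0.09, adjusted p = 9.38e-07). CYP1A1, ASS1 and ASL rose by 0.30, 0.30 and 0.28 (adjusted p = 0.0247, 0.00802 and 0.0144), KRT18 fell by 0.28 (adjusted p = 0.0215), and FABP1 fell by 0.28 with overlapping arrays (adjusted p = 0.0381). CYP1A1 before DOX and FABP1 after it had means below the median of all probes, 5.61 and 5.62.

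After cyclic loess CEBPA, VTN, KRT8, CPS1, KRT18 and FABP1 were still called in DOX-treated scramble cells (0.38, 0.34, 0.35, -0.79, -0.60 and -0.30), and ALB (0.05), ASS1 (0.06), ASL (0.03) and CYP1A1 (0.27) were not, while FOXA1 was called at -0.34. Calls were lost for CYP1A1 without untreated array 2 or 3 or DOX array 1 or 3 (0.25 to 0.29), for ASL without array 1 of either group (0.23 and 0.24), for KRT18 without array 2 of either (-0.25 and -0.26) and for FABP1 without array 2 or 3 of either, from -0.27 without untreated array 3 to -0.17 without DOX array 3. Second probes disagreed: ASS1 changed by -0.61 on its second probe, which had a mean of 11.10, and KRT18 by 0.45 on its second, with a mean of 6.54, both called (adjusted p over all probes = 8.38e-06 and 0.000136). Of the 4 genes with a second probe above the median (ASL, ASS1, FGA and KRT18), 2 moved the opposite way on it.

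DOX in the arrays labelled si-hnRNP K, also across clusters, called 4 of 15 genes higher and 2 lower, against 45.5% and 13.2% of all genes tested and a median of 0.08 against 0.21. CEBPA went from 7.37, 7.69 and 7.63 to 8.37, 8.81 and 8.63, a 2.05-fold rise (1.04 ± 0.12, adjusted p = 7.49e-08). VTN rose by 0.82 ± 0.09 and KRT8 by 0.48 ± 0.11 (adjusted p = 6.07e-08 and 0.000781). CPS1 fell by 0.45 on the log2 scale and KRT18 by 0.39 (adjusted p = 0.000134 and 0.00254). CYP1A1 rose by 0.28 with overlapping arrays (adjusted p = 0.0415), a call lost without untreated array 2 or 3 (0.24 and 0.21), without DOX array 2 (0.17) and with no filter (adjusted p = 0.0524). Its untreated mean in these arrays, 5.57, lay below the median of all probes, so this rise has no settled size. ALB differed by 0.08 (95% interval -0.12 to 0.29, adjusted p = 0.487). KRT8 and CYP1A1 lost their calls after cyclic loess (0.25 and 0.26, adjusted p = 0.0886 and 0.0855), and the second KRT18 probe moved the other way by 0.23 (adjusted p over all probes = 0.0617). ASS1 was not called on the probe used, with means of 11.21 untreated and 11.37 with DOX. Its second probe went the other way, from 11.48 to 10.80. Of the 4 genes with a second probe above the median, 3 moved the opposite way on it.

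The contrast of both labels without DOX set the same clusters against each other, with 2 of 15 genes higher in arrays labelled si-hnRNP K and 6 lower, against 22.9% and 43.7% of all genes tested and a median of -0.20 against -0.17. ALB was higher by 1.66 ± 0.10 and CPS1 by 0.74 ± 0.09 (adjusted p = 1.07e-13 and 5.2e-08). VTN was lower by a difference of -1.23, ASL of -0.73, KRT8 of -0.58, ASS1 of -0.52, KRT18 of -0.37 and CEBPA of -0.28 (adjusted p = 1.26e-11, 2.74e-07, 6.48e-05, 2.99e-05, 0.00311 and 0.046). KRT18 and CEBPA lost their calls after cyclic loess, at -0.09 and 0.01, and FOXA1 was called at 0.43. The second ASS1 probe differed by 0.44, in the opposite direction. CEBPA, whose arrays overlapped, also lost its call without array 1 or 3 labelled si-PSTAR (-0.19 and -0.28) or array 1 or 3 labelled si-hnRNP K (-0.18 and -0.31). The 9 comparisons share groups of arrays, so they are not independent of each other.

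Whether the DOX response differed between siRNA labels was tested as an interaction. For arrays labelled si-PSTAR it was called in 7 of 15 genes, 1 higher and 6 lower, against 14.1% and 38.8% of all genes tested, with a median of -0.17 against -0.24. KRT8 differed most, by -1.08 ± 0.16 (adjusted p = 4.18e-06): it rose with DOX in scramble and fell in arrays labelled si-PSTAR. VTN differed by -0.75 ± 0.13, CEBPA by -0.62 ± 0.17, ASL by -0.52 ± 0.14 and ASS1 by -0.39 ± 0.13 (adjusted p = 5.43e-05, 0.00338, 0.00248 and 0.016). CPS1 differed by 0.71 ± 0.13 (adjusted p = 5.18e-05), falling with DOX in scramble from a mean of 13.93 to 13.29 and standing at 13.36 and 13.43 in arrays labelled si-PSTAR. Untreated scramble is the only 1 of these 4 groups in the smaller cluster, so cluster and interaction cannot be told apart. After cyclic loess 3 calls were left, KRT8 (-0.84), VTN (-0.41) and CPS1 (0.85), and ASS1 changed sign on its second probe (0.58).

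For arrays labelled si-hnRNP K the interaction was called by limma in 0 of 15 genes, with 0 at an unadjusted p under 0.05, and in 3.17% of all genes tested in either direction. The median of the 15 was -0.02, as over all genes. ALB differed by -0.29 (95% interval -0.58 to 0.0046, adjusted p = 0.330) and CEBPA by 0.34 (95% interval -0.01 to 0.69, adjusted p = 0.329).

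Wider lists of liver genes were counted in the 3 comparisons of siRNA labels with scramble that lie within a cluster. The lists were also counted in the direct contrast of both labels with DOX. There, 3 of 18 tested factors were higher in arrays labelled si-hnRNP K and 8 lower. Of 19 secreted genes 1 was higher and 5 lower, of 30 metabolic genes 7 and 2, and of 5 fetal liver genes 1 and 1. The shares of all genes tested were 22.3% higher and 20.9% lower, and nothing is read from these counts. In arrays labelled si-PSTAR with DOX, 6 of 11 tested genes of the acute phase response were higher and 0 lower, against 22.4% and 22.6% of all genes tested, with a median of 0.29 against 0.01. The acute phase is the liver's change in secretion during inflammation, and 7 of the 26 genes of this list are also among the 47. In the direct contrast of both labels with DOX, 7 of its 11 tested genes were lower in arrays labelled si-hnRNP K and 0 higher, against 20.9% and 22.3% of all genes tested. Both counts use the DOX arrays labelled si-PSTAR, so they are not independent. The list also shares genes with the wider factors (CEBPB and CEBPD) and the wider secreted genes (among them SERPINA3 and CP). It is short and was chosen with earlier results known, so nothing is read from its counts for the response as a whole. Against scramble with DOX, SAA1, a serum amyloid, was 2.48-fold higher in arrays labelled si-PSTAR (1.31 ± 0.09, limma adjusted p = 1.03e-11). In the same comparison with scramble, CEBPD and CEBPB, factors that act on acute phase promoters, were higher by 1.21 ± 0.09 and 0.65 ± 0.09. SOCS3, a feedback inhibitor of cytokine signalling, was higher there by 0.79 ± 0.10 (adjusted p = 1.64e-11, 1.08e-06 and 7.21e-07 for the 3 genes). The second SOCS3 probe differed by 0.07. IL6, a cytokine that drives this response, had means of 9.56 in scramble and 9.70 in arrays labelled si-PSTAR with DOX, and of 6.09 and 6.70 without it. In arrays labelled si-hnRNP K the IL6 means were higher still, 9.79 with DOX and 7.41 without it. The part of IL6 in the differences above was not tested.

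The counts of the other wider lists, in arrays labelled si-PSTAR against scramble with DOX, are read against the same 22.4% of all genes higher and 22.6% lower. Of 19 further secreted genes 4 were higher and 1 lower, of 18 liver-enriched or metabolic factors 5 and 3, of 30 metabolic genes 4 and 5, and of 5 fetal liver genes 0 and 1. With so few genes in each, nothing particular to these lists is read from the counts. TFPI, an inhibitor of coagulation, was 3.17-fold higher (1.67 ± 0.09), PROS1, a cofactor of protein C, was higher by 0.62 and F12, a coagulation factor, by 0.47 (adjusted p = 9.96e-14, 2.2e-05 and 0.00123). PROC, the protein C gene, stood 0.47 above the median of all probes, against a reading of 5.61 in scramble. It was above that median only on the 6 arrays labelled si-PSTAR and passed the filter through them, so its call, 1 of the 4, supports nothing. SREBF1, a factor of lipid synthesis, was 4.34-fold lower (-2.12 ± 0.10) and MLXIPL, a glucose-sensing factor, 2.02-fold lower, while NFIL3 was 2.24-fold higher (adjusted p = 3.59e-15, 2.95e-08 and 3.35e-08). CYP1B1 was 2.38-fold higher, and SLC37A4, the glucose-6-phosphate transporter, and PYGL, the liver glycogen phosphorylase, differed by -0.53 and -0.49 (adjusted p = 1.54e-09, 4.09e-05 and 8.72e-05). SLCO1B3, a bile salt and drug transporter, was called lower (adjusted p = 2.66e-05), reading 5.39, below the median of all probes, while scramble stood 0.28 above it. The fetal liver gene called was IGF2BP3, lower by a difference of -0.48 (adjusted p = 0.00448).

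Against scramble, arrays labelled si-hnRNP K had 6 of 30 metabolic genes higher and 3 lower without DOX, where 17.0% of all genes tested were higher and 16.2% lower, and 8 higher and 2 lower with DOX, where these shares were 19.8% and 19.9%. CTH, the enzyme that makes cysteine from cystathionine, was 6.25-fold higher without DOX (2.64 ± 0.10) and 4.87-fold higher with DOX (2.28 ± 0.10, adjusted p = 1.93e-17 and 5.64e-16). ABCC2, a bile canalicular exporter, was higher by 0.74 and 0.63, and HPD, an enzyme of tyrosine breakdown, by 0.43 and 0.67 (adjusted p = 1.44e-07 and 1.53e-06, and 0.0012 and 4.73e-06). ACSL1, a fatty acid ligase, was lower by a difference of -0.56 without DOX and CYP1B1 higher by 0.65 with DOX (adjusted p = 3.24e-05 and 5.13e-05). Of 19 secreted genes 2 were lower in each comparison and 0 higher, against the same shares of all genes. PROS1 differed by -0.74 and -0.64, A2M, a protease inhibitor, by -0.56 without DOX and LCAT, an enzyme of lipoproteins, by -0.59 with DOX (adjusted p = 2.93e-06, 1.67e-05, 1.14e-05 and 0.000393).

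Of 18 factors, 6 were higher and 6 lower in these arrays without DOX, and 4 higher and 5 lower with it, against 17.0% and 16.2% of all genes without DOX and 19.8% and 19.9% with it. RXRA, the partner of many nuclear receptors, differed by -0.54 and -0.91, and PPARGC1A, a coactivator of glucose production, by -0.53 and -0.71 (adjusted p = 1.23e-05 and 2.3e-09, and 4.32e-05 and 5.88e-07). Without DOX SREBF1 differed by -0.56 and ONECUT2 by 0.64, and with DOX MLXIPL differed by -0.96 and ATF5 by 0.72 (adjusted p = 6.02e-05, 5.63e-05, 9.71e-08 and 6.95e-06). Of 11 acute phase genes, 2 were higher and 1 lower without DOX and 1 higher and 1 lower with it, against the same shares. CEBPB was lower in both, by differences of -0.29 and -0.51, SOCS3 and CEBPD were higher without DOX, by 0.60 and 0.35, and SAA1 was higher with DOX, by 0.32 (adjusted p = 0.0138, 4.7e-05, 5.45e-05, 0.0024 and 0.00711). Without DOX the CEBPB call was lost without scramble array 1 or array 2 labelled si-hnRNP K (-0.24 and -0.26), and the SAA1 call with DOX without scramble array 3 (0.24). The second SOCS3 probe differed by 0.06 without DOX.

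Of 5 fetal liver genes, 0 were higher and 2 lower in arrays labelled si-hnRNP K without DOX, with 1 higher and 1 lower with it, against 17.0% and 16.2% of all genes without DOX and 19.8% and 19.9% with it. PEG10, an imprinted gene, differed by -0.47 without DOX, and by -0.01 on its second probe. H19, an imprinted noncoding RNA, had means of 14.22 and 14.35 in scramble arrays without and with DOX and differed by -0.28 and -0.23 (adjusted p = 0.000708 for PEG10, 0.0116 and 0.0352 for H19). IGF2BP3 was higher by 0.34 with DOX, with overlapping arrays (adjusted p = 0.0453). The H19 and IGF2BP3 calls with DOX were each lost without any 1 of several arrays, H19 without scramble array 1 or 3 or array 2 or 3 labelled si-hnRNP K (-0.22 to -0.19) and IGF2BP3 without scramble array 2 or array 2 or 3 labelled si-hnRNP K (0.21 to 0.27), and that of H19 without DOX without scramble array 3 (-0.24).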

How the data were processed

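Total RNA was amplified, labelled and hybridised to single-channel Illumina arrays, per the labels' protocols. The authors deposited log2 intensities of 43961 probes. Their log2 scale and quantile normalization were read from the values: sorted columns differed by under 0.01 at 99.9955% of ranks. Software, background correction and detection calls are not given in these sources. The values were used as deposited. The 16 hours of DOX are those of the series' design text, while the treatment protocol also names a shorter time.

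Probe names came from the platform annotation, updated by gene identifier in RefSeq's table for GRCh38.p14; 29511 probes carried 1 symbol, 0 several and 14450 none. The filter at the median of probe means, 5.72, removed 7299 genes and kept 12483. One limma model (3.58.1, R 4.3.3) of 6 group means had 12 residual and 13.5 prior degrees of freedom. Its 9 comparisons of 2 groups and 2 interactions used a two-sided test, a Benjamini-Hochberg adjustment over all genes in each, and a threshold of 0.05. Single values were not permuted, because exact permutation of 3 against 3 arrays reaches p = 0.1 at best. Second probes were fitted among all probes, with p adjusted over them. The fit was tested on simulated data.

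Genes named in a comparison were ALB, AFP, APOA1 and CEBPA (1 further gene is not reported here), at most 8 called listed genes in each direction with no overlap between arrays, at most 4 called genes per wider list by p, and the 5 largest interactions each way. The absence of overlap is a description of the arrays, and its share over all genes is not given. Called listed genes outside this rule were named after their values were seen. Members, wider lists and tests were chosen with earlier results of these data known. A fit of the 12 arrays of the larger cluster was added after seeing the values. The other alternatives were cyclic loess scaling, centring at the 75th percentile, a filter at the 70th percentile or none, averaging a gene's probes, its second brightest probe, fitting 2 groups alone, blocking on the replicate number, a trended robust prior, and omitting each array. The groups share replicate numbers, which did not pair the arrays. Motifs were searched on both strands of RefSeq's promoter table. Figures were made with matplotlib 3.10.9.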

Additional observations from a re-analysis of the deposited data

Results flagged for a closer look

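The DOX response of 7 listed genes differed between arrays labelled si-PSTAR and scramble by the test of the interaction (limma adjusted p under 0.05 for each). The differences of the DOX response were -1.08 for KRT8, -0.75 for VTN, -0.62 for CEBPA, -0.52 for ASL, -0.39 for ASS1, -0.38 for ALB and 0.71 for CPS1. ALB is outside the naming rule for interactions and was added after its value was seen. Its call was lost after cyclic loess (-0.05, adjusted p = 0.842) and without any 1 of 6 of the 12 arrays (-0.36 to -0.33, adjusted p = 0.0546 to 0.0727). Over all genes the median of this interaction was -0.24. Untreated scramble arrays lie in the smaller cluster and the other 3 groups in the larger, so cluster and interaction cannot be told apart.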

How the results depend on the processing

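Counts of called listed genes stayed within 1.5 times their value with the mean of a gene's probes, centring on the 75th percentile, the replicate block and the trended robust prior in all 11 tests, and in the 12 arrays of the larger cluster in all 4. DOX in arrays labelled si-PSTAR gave 1 call in place of 2 with the filter at the 70th percentile and with the groups compared alone, and 1 to 2 when 1 array was left out. Arrays labelled si-PSTAR against scramble gave 5 calls in place of 9 without DOX after cyclic loess, and 3 to 5 with DOX when 1 array was left out. Arrays labelled si-hnRNP K against scramble gave, without DOX, 3 calls in place of 1 with no filter (of 44 genes tested) and 0 with the second brightest probe, and with DOX 2 to 5 in place of 3 when 1 array was left out. The interaction of si-PSTAR gave 3 in place of 7 after cyclic loess. Cyclic loess also moved the share of higher among all calls from 77.2% to 51.1% for DOX in scramble, from 77.5% to 49.8% for DOX in arrays labelled si-hnRNP K, from 65.9% to 45.5% for si-PSTAR without DOX, from 34.4% to 53.6% for the contrast of labels without DOX and from 26.6% to 56.5% and 64.6% to 77.7% for the interactions of si-PSTAR and si-hnRNP K. With the groups compared alone, DOX in arrays labelled si-PSTAR called 884 of all genes in place of 2233, and the interaction of si-hnRNP K 661 in place of 396. Leaving out 1 array, these were 1378 without DOX array 2 labelled si-PSTAR, and 205 to 247 without untreated scramble array 1 or 2, scramble DOX array 1, or untreated array 1 or DOX array 3 labelled si-hnRNP K. Among calls, signs changed on the second brightest probe for ASS1 with DOX in scramble (-0.61), in si-PSTAR against scramble without DOX (-0.42), in the contrast of labels without DOX (0.44) and in the interaction of si-PSTAR (0.58), for KRT18 with DOX in scramble (0.45) and in si-hnRNP K (0.228), and for ASL in the contrast of labels with DOX (0.087). With the mean of probes they changed for KRT18 with DOX in scramble (0.086), ALB in si-PSTAR against scramble with DOX (-0.0043) and ASL in the contrast of labels with DOX (0.0029). After cyclic loess they changed for ALB with DOX in si-PSTAR (0.0034) and in si-hnRNP K (-0.17), for KRT18 and CEBPA in si-PSTAR against scramble without DOX (-0.016 and -0.041), and for CEBPA in the contrast of labels without DOX (0.0099). Leaving out 1 array, ALB with DOX ran from -0.087 to 0.033 in si-PSTAR and from -0.024 to 0.149 in si-hnRNP K, and CEBPA from -0.0044 to 0.153 with DOX in si-PSTAR and from -0.104 to 0.096 in si-hnRNP K against scramble without DOX, all without a call. The cause of these changes was not tested. ALB in arrays labelled si-hnRNP K against scramble was called with each alternative in which a probe of it passed the filter (its second probe did not), at 1.07 to 2.24 without DOX and 0.98 to 1.90 with DOX. With the replicate block there were 8 calls in place of 9 for si-PSTAR against scramble without DOX, 7 in place of 8 for the contrast of labels without DOX and 8 in place of 9 for it with DOX, and the other 8 counts did not change. Of 45 pairs of arrays with the same replicate number, 6 deviated together with r over 0.1, and 5 of 18 arrays were closest to their own number. The absence of detection p-values limits what can be said of the 35 genes near the median.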
